A study of Rattus norvegicus with 8 samples.

Results

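The genes described here encode the matrix metalloproteinases (MMPs), the ADAM and ADAMTS proteases, the ADAMTS-like proteins and the tissue inhibitors of metalloproteinases (TIMPs), measured in rat lung. They were chosen by symbol: every gene of the deposited table whose name starts with Mmp, Timp, Adam, Adamts or Adamtsl followed by a digit. The rule matched 74 genes of 32623, and the 43 with a mean of at least 0.5 FPKM in either group are reported. FPKM counts sequenced fragments per unit of transcript length and of library size. The libraries came from lung tissue of rats: 4 libraries of the MCT group, given monocrotaline, and 4 control libraries. Monocrotaline is a plant alkaloid whose metabolites injure the lung vessels and is used to model pulmonary hypertension. The labels used here give no dose, time after treatment, strain, sex or age and do not say what the control rats received. Whether each library is from its own rat is not stated. The p-values therefore describe the spread among the libraries of a group, and that spread may be technical.

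MMPs are zinc-dependent endopeptidases that are made as inactive precursors and cut collagens, elastin, proteoglycans and other matrix proteins. ADAMs are membrane-bound relatives that release the outer part of growth factors, cytokines and receptors from the cell surface, and ADAMTS proteases are secreted enzymes that process procollagens, proteoglycans, fibrillin-associated proteins and von Willebrand factor. TIMPs bind the active site of these enzymes and block it, and in the lung the balance of proteases and inhibitors takes part in the turnover of the alveolar walls and of the vessel wall.

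Of the 74 genes, 49 had enough counts to be tested, and 13 of these were called higher and 3 lower in MCT lungs (edgeR's quasi-likelihood test, Benjamini-Hochberg adjusted p under 0.05 over all 16715 genes tested). Those 16 calls are 32.7% of the tested members, beside 20.5% of all genes tested. The higher calls were 26.5% of the tested members beside 11.0% of all genes, and the lower calls were 6.12% beside 9.45%. Of the 49 tested members, 6 were called with a log2 fold change of 1 or more in size, all higher in MCT lungs. They are Mmp2, Mmp12, Timp1, Adam12, Adamts4 and Adamtsl2. Of all genes tested, 5.48% were called with a change of that size. Timp1 stood just inside this limit (1.003) and Mmp14 just outside it (0.95). With 1 library left out, Timp1 ranged from 0.86 to 1.13 and Mmp14 from 0.82 to 1.07. The FPKM values of the groups did not overlap for 17 of the 49 tested members (34.7%), beside 25.0% of all genes. The 27 reported genes that were not called had log2 fold changes of -0.53 to 0.77, 12 above 0 and 15 below. Of all 74 genes, 9 were at 0 FPKM in all 8 libraries. The median log2 fold change, MCT minus control, was 0.15 over the tested members and 0.03 over all genes tested. Adam12, Adamts4 and Adamts6 are reported through their MCT mean alone and Mmp9 through its control mean alone. Just inside the limit of 0.5 FPKM stood Mmp9 (control mean 0.56) and just outside it Adam28 (MCT mean 0.24, control mean 0.42).

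**Figure D1:**
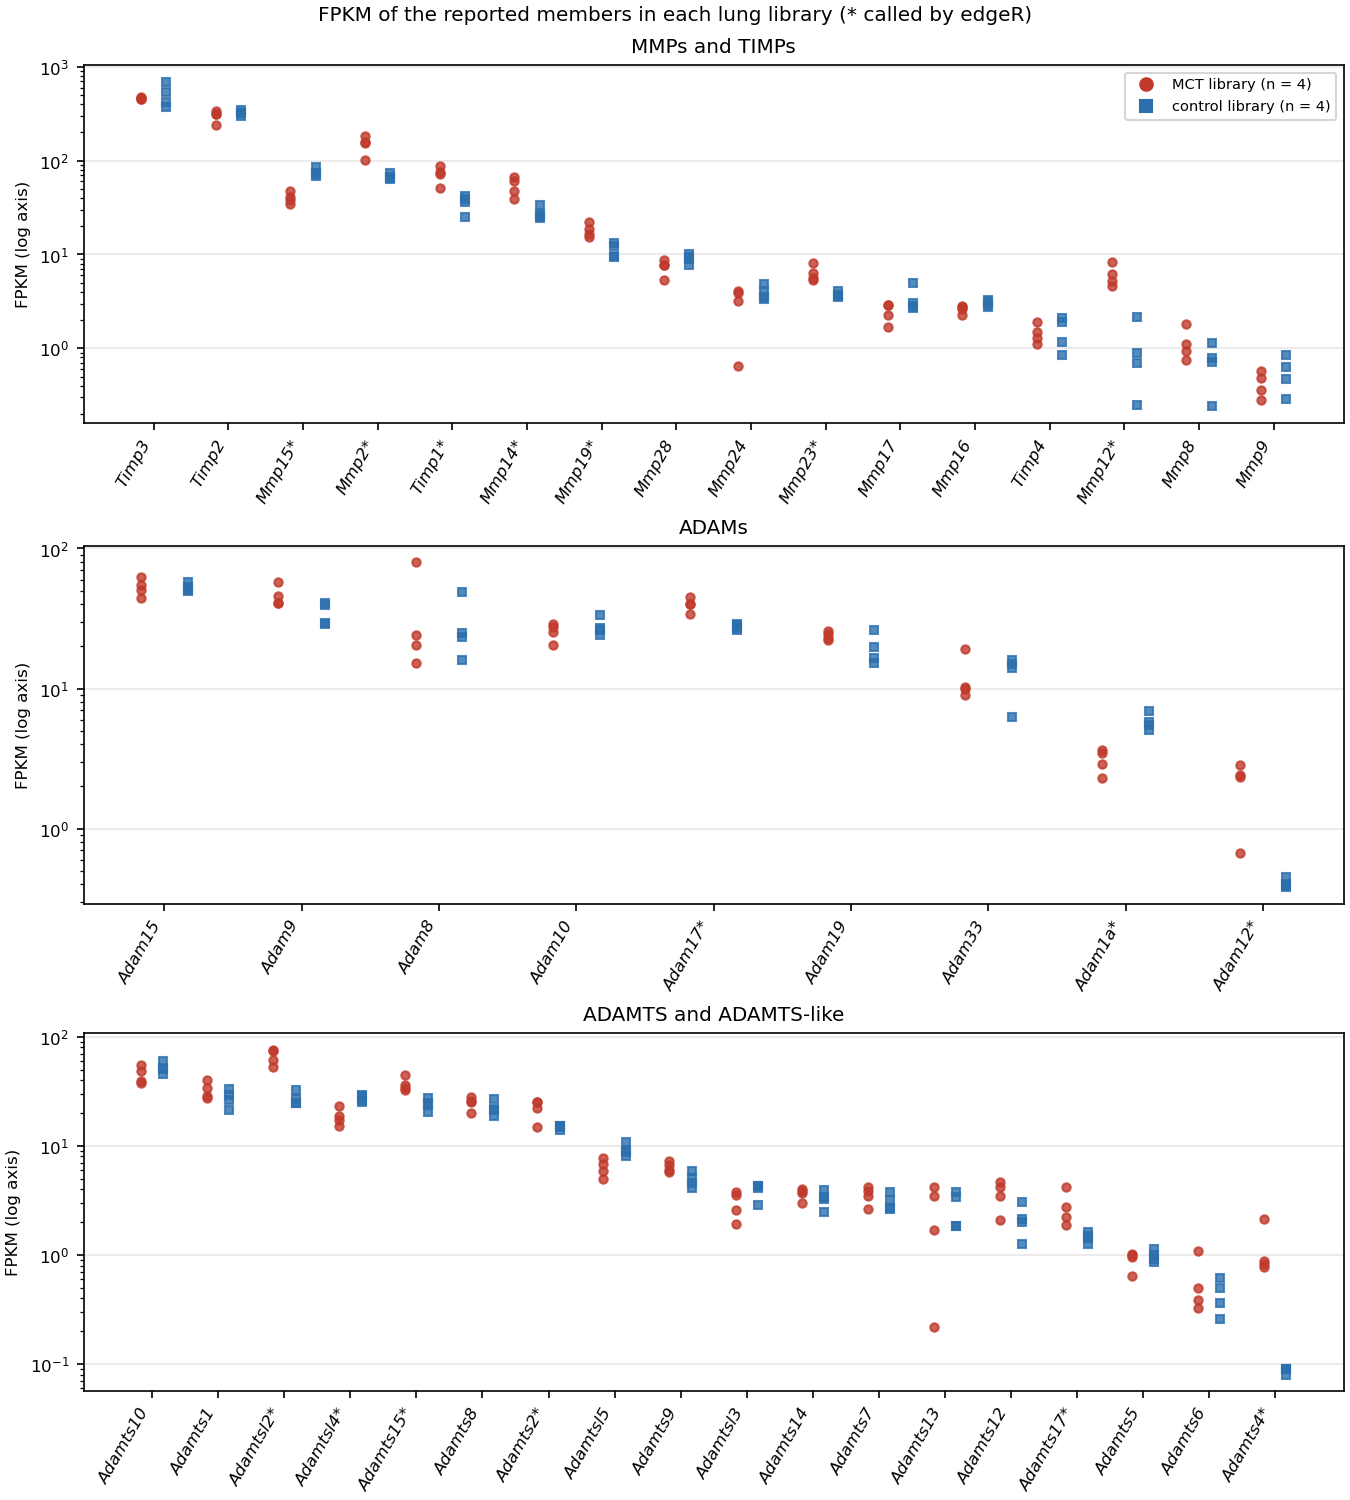
FPKM of the 43 reported genes in each library on a log10 axis, in panels for MMPs and TIMPs, ADAMs, and ADAMTS with ADAMTS-like genes; red circles are MCT libraries, blue squares control libraries, and a star marks called genes. Group means ran from 0.425 to 463 FPKM in MCT lungs and from 0.0875 to 504 FPKM in control lungs, with Timp3 highest in both groups.

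By library number the MCT lungs were not alike. MCT 1 had the lowest MCT value for 9 of the 13 higher members. This was not particular to them. MCT 1 also had the lowest MCT value for most reported genes that were not called, among them Adam10, Adamts8, Timp2 and Timp3. MCT 1 and control 1 also had the highest summed FPKM of 3 club cell markers (30905 in MCT 1 and 22068 in control 1, with 9134 to 16286 elsewhere) and of 5 cardiac myocyte markers (124 in MCT 1 and 59.7 in control 1, with 26.4 to 53.3 elsewhere). Their part in the results was not tested, and the results that changed when both libraries were left out are named where they occur. The libraries held about 11.3 to 18.1 M read pairs in MCT lungs and 10.8 to 14.8 M in control lungs.

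Among the gelatinases, Mmp2 rose and Mmp9 was low in every library. Mmp2 (ENSRNOG00000016695, Rnor_6.0 chromosome 19, 15542765 to 15570611, minus strand) encodes gelatinase A, which cuts denatured collagen and basement membrane collagen. It measured 101, 185, 156 and 156 FPKM in MCT lungs 1 to 4, against 73.4, 67.7, 65.2 and 63.6 FPKM in control lungs 1 to 4. All MCT libraries lay above all control libraries, with MCT 1 nearest to them. The means were 149 ± 35.3 FPKM in MCT lungs and 67.5 ± 4.25 FPKM in control lungs (SD, n = 4 each), a log2 fold change of 1.14 (SE 0.16, edgeR adjusted p 0.00183), or 2.21-fold. In RNA of bulk lung, fewer cells of a type and less RNA per cell cannot be told apart, here and in all results that follow. Mmp2 ranked 3 in level among the reported genes in MCT lungs and 4 in control lungs, and it made up 43.8% to 53.9% of the summed MMP FPKM in MCT lungs, against 29.8% to 34.4% in control lungs. Mmp9, gelatinase B of neutrophils and macrophages, had 0.28, 0.58, 0.36 and 0.48 FPKM in MCT lungs and 0.64, 0.29, 0.47 and 0.84 FPKM in control lungs. The groups overlapped, and the log2 fold change of -0.39 (SE 0.39) did not pass the test (edgeR adjusted p 0.535).

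Part of the fibroblast marker list was also higher in MCT lungs. Of 8 such markers tested, 4 were called higher (Col1a1, Col3a1, Dpt and Lum) and 4 were not called (Col14a1 at a log2 fold change of 0.45, Tcf21 at 0.15, Pdgfra at 0.08 and Dcn at -0.07). Their summed FPKM was 1177 to 1883 in MCT lungs, lowest in MCT 1, and 680 to 897 in control lungs. Without Col1a1 and Col3a1 the sum was 455 to 621 FPKM in MCT lungs and 332 to 481 FPKM in control lungs, which overlap. All 8 mast cell markers tested were higher too, with a summed FPKM of 263 to 1256 in MCT lungs, again lowest in MCT 1, and 13.8 to 24.5 in control lungs. The 4 markers of dividing cells were all higher, with 41.0 to 47.3 FPKM in MCT lungs and 8.62 to 12.4 FPKM in control lungs. None of these markers was at 0 in all libraries, and their part in the results was not tested.

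The membrane-type MMPs, which sit on the cell surface, held a higher and a lower call. Mmp14 (ENSRNOG00000010947, chromosome 15, 33074441 to 33083655, plus strand) encodes a membrane-anchored collagenase that also activates the Mmp2 precursor. It had 38.9, 66.8, 47.0 and 60.9 FPKM in MCT lungs and 26.7, 24.2, 33.6 and 25.9 FPKM in control lungs. Every MCT library was above every control library. The means of 53.4 ± 12.7 FPKM in MCT lungs and 27.6 ± 4.13 FPKM in control lungs gave a log2 fold change of 0.95 (SE 0.17, edgeR adjusted p 0.00578). Mmp15 (ENSRNOG00000012622, chromosome 19, 10079765 to 10101451, minus strand) encodes another transmembrane member of this subfamily. It had 47.5, 37.7, 40.6 and 34.7 FPKM in MCT lungs and 73.3, 72.5, 85.1 and 67.9 FPKM in control lungs. The groups did not overlap. Mmp15 averaged 40.1 ± 5.44 FPKM in MCT lungs and 74.7 ± 7.32 FPKM in control lungs (log2 fold change -0.90, SE 0.12, edgeR adjusted p 0.00142), a control level 1.86-fold that of MCT lungs. It ranked 10 in level among the reported genes in MCT lungs and 3 in control lungs. The FPKM ratio of Mmp14 to Mmp15 was 0.821, 1.77, 1.16 and 1.75 in MCT lungs and 0.365, 0.334, 0.395 and 0.382 in control lungs. Mmp14 exceeded Mmp15 in MCT 2, 3 and 4 and stood below it in MCT 1 and in all control libraries. Mmp16, Mmp17 and Mmp24 of the same subfamily had log2 fold changes of -0.21, -0.49 and -0.43 and were not called. Mmp24 ranged from 0.65 FPKM in MCT 2 to 4.08 FPKM in MCT 4, against 3.33 to 4.88 FPKM in control lungs. Mmp17, which a lipid anchor holds on the membrane, had 1.68 to 2.91 FPKM in MCT lungs and 2.72 to 4.98 FPKM in control lungs.

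Along with Mmp15, the summed markers of alveolar type 2 and endothelial cells were lower in MCT lungs. Leaving out 1 gene made the alveolar type 2 sums overlap, and the endothelial sums stayed apart. Of 7 alveolar type 2 markers tested, 4 were lower and 1 higher in MCT lungs, with a summed FPKM of 20594 to 26676 in MCT lungs and 28644 to 37109 in control lungs. Without Sftpc that sum was 6931 to 9622 FPKM in MCT lungs and 8330 to 10332 FPKM in control lungs, which overlap. Of 6 endothelial markers tested, 1 (Tek) was called lower and 5 were not called, and their summed FPKM was 189 to 276 in MCT lungs and 403 to 456 in control lungs. Tek averaged 21.2 ± 1.84 FPKM in MCT lungs and 129.8 ± 17.7 FPKM in control lungs. Without Tek the sum was 170.3 to 254 FPKM in MCT lungs and 286 to 305 FPKM in control lungs, which do not overlap. These sums without a gene were chosen after the values were seen. Cldn5 was at 0 in MCT 2 and no marker on either list was at 0 in all libraries, and their part in the Mmp15 result was not tested.

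Mmp12 encodes macrophage elastase, which cuts elastin and is made mainly by macrophages. The gene (ENSRNOG00000030187, chromosome 8, 5606592 to 5616493, plus strand) had 6.27, 8.36, 4.59 and 5.27 FPKM in MCT lungs and 0.69, 0.89, 2.15 and 0.25 FPKM in control lungs. Every MCT library exceeded the highest control, control 3. It averaged 6.12 ± 1.64 FPKM in MCT lungs and 0.995 ± 0.815 FPKM in control lungs, a log2 fold change of 2.61 (SE 0.56, edgeR adjusted p 0.0120), or 6.10-fold. These values rest on about 105 to 204 read pairs per MCT library and 5.18 to 44.1 per control library. Without control 3 the log2 fold change was 3.30 (edgeR adjusted p 0.00331), and without both MCT 1 and control 1 it was 2.44 and missed the threshold (edgeR adjusted p 0.0590). Of 11 macrophage markers tested, 8 were higher in MCT lungs. The summed FPKM of the 12 listed markers was 10145 to 18770 in MCT lungs and 12460 to 17140 in control lungs. Lysozyme gene Lyz2 dominates that sum, and without it, a split made after the values were seen, the range was 694 to 1149 FPKM in MCT lungs and 254 to 425 FPKM in control lungs. Marco was at 0 in all control libraries. The part of macrophage abundance in the Mmp12 result was not tested.

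Mmp12 lies in a cluster of 10 MMP genes on chromosome 8 that spans 378 kb in Rnor_6.0 (5522739 to 5901049). It includes the interstitial collagenases, the stromelysins Mmp3 and Mmp10 and matrilysin (Mmp7). Mmp12 and Mmp8 are the only cluster genes reported, and 4 of the 10 were at 0 in all 8 libraries (Mmp1, Mmp1b, Mmp10 and Mmp27). Mmp8, the neutrophil collagenase, had 1.81, 0.94, 0.76 and 1.12 FPKM in MCT lungs and 0.79, 0.24, 1.14 and 0.71 FPKM in control lungs. The groups overlapped (log2 fold change 0.69, SE 0.47, edgeR adjusted p 0.347). Mmp13, collagenase 3, was at 1.3 FPKM (about 40.1 read pairs) in MCT 1 and at 0 in the other 3 MCT libraries, and it had too few counts to be tested. Of 7 neutrophil markers tested, 1 was higher in MCT lungs, with a summed FPKM of 28.0 to 95.2 in MCT lungs and 14.6 to 38.4 in control lungs and Ltf at 0 in all libraries.

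The sequences just upstream of these genes are shown because Mmp12 was called while most genes of its cluster were at or near 0 FPKM, and their promoters hold some of the same short motifs. The lines give the 120 bases before each start from RefSeq (GRCr8, plus strand). They cover chr8:12866532-12866651 for Mmp12, chr8:12782709-12782828 for Mmp13, chr8:12925161-12925280 for Mmp3, chr8:12974587-12974706 for Mmp10, chr8:13132923-13133042 for Mmp7 and chr8:13008770-13008889 for Mmp8. Capitals mark matches to the AP-1 motif TGANTCA and to the TATA box TATAAA, which in Mmp8 is on the opposite strand.
Mmp12: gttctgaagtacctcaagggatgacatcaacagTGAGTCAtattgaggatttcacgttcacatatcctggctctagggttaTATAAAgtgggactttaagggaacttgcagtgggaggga
Mmp13: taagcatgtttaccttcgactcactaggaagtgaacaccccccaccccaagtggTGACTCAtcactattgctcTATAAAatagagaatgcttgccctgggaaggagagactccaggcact
Mmp3: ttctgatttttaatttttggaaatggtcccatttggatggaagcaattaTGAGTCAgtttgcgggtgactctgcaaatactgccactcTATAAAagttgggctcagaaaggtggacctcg
Mmp10: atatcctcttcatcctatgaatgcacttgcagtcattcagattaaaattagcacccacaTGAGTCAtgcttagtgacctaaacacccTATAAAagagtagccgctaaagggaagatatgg
Mmp7: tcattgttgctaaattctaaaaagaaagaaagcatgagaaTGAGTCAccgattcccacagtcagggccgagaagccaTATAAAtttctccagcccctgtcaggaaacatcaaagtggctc
Mmp8: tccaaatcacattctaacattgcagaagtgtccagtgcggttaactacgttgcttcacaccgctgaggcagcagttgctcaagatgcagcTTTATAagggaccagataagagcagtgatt

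In Mmp12 the AP-1 match starts 87 bases and the TATA match 39 bases before the gene's start. In Mmp13, Mmp3, Mmp10 and Mmp7 the AP-1 match starts 66, 71, 61 and 80 bases upstream. Mmp8 has no AP-1 match in the 250 bases searched. A RefSeq promoter was found for 50 of the 74 members, including all 10 cluster genes, and both strands of the 250 bases before the start were searched. AP-1 matched in 7 of the 10 cluster promoters and in 1 of the other 40 members (Adam19), beside 6.34% of 33469 rat promoters. TATAAA matched in 8 of the 10 cluster promoters and in 8 of the other 40, beside 12.9% of all promoters. All 7 cluster promoters with the AP-1 motif also held TATAAA. The GC box GGGCGG, searched on both strands, matched in 24 of the 50 members, beside 30.5% of all promoters. Of the 9 higher members with a promoter, Mmp12 alone held the AP-1 motif. A match describes letters and is not a shown binding site. The AP-1 and TATAAA letters stand in Mmp10, at 0 in all libraries, as in Mmp12.

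**Figure D2:**
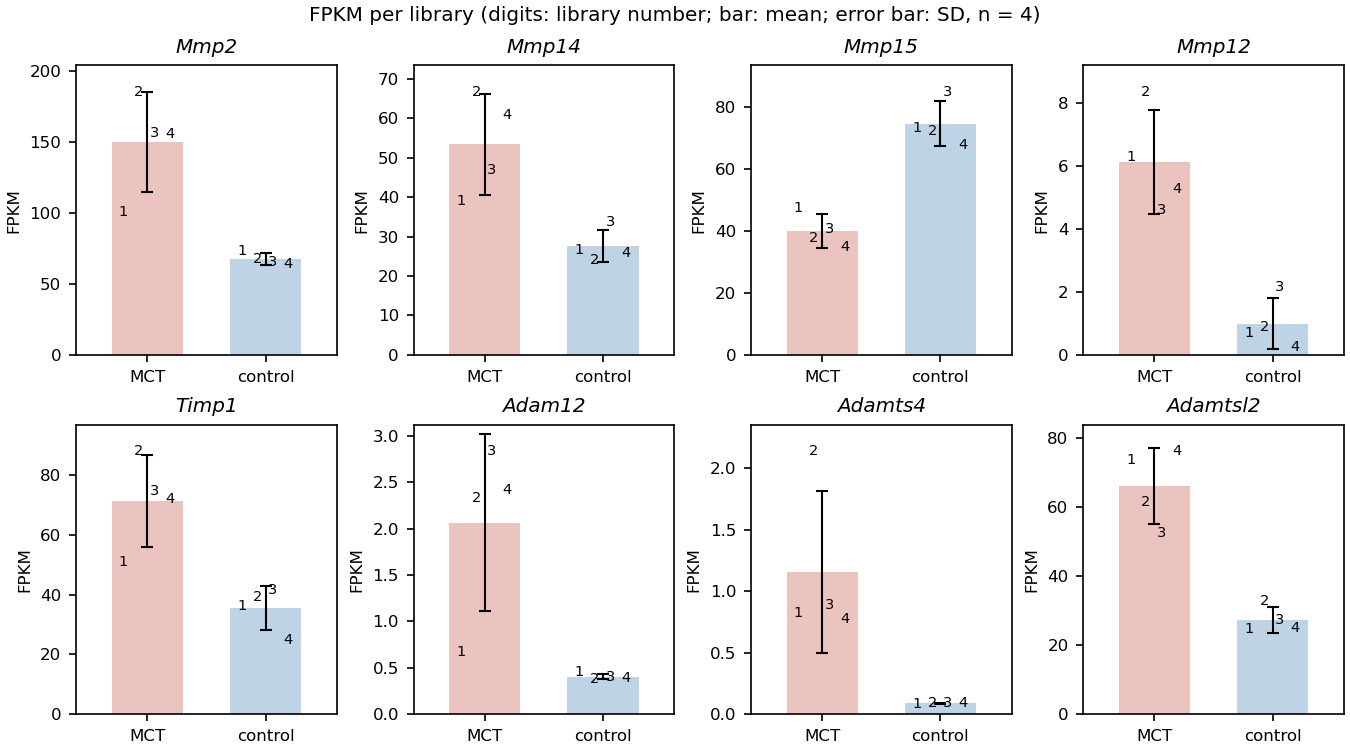
FPKM of 8 named genes in each library. Digits are library numbers, bars the mean and error bars the SD (n = 4 each), with MCT left of control; Mmp15 is the gene with all MCT libraries below all control libraries.

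Of the other MMPs, Mmp23 and Mmp19 rose. Mmp23 (ENSRNOG00000017477, chromosome 5, 173078590 to 173081839, minus strand), made as a membrane-anchored precursor, had 5.34, 8.14, 6.33 and 5.67 FPKM in MCT lungs and 3.65, 4.12, 3.74 and 3.51 FPKM in control lungs. The groups did not overlap. The log2 fold change was 0.76 (SE 0.16, edgeR adjusted p 0.0115). Mmp19, a widely expressed MMP of basement membranes, averaged 18.2 ± 3.14 FPKM in MCT lungs and 11.1 ± 1.87 FPKM in control lungs (log2 fold change 0.71, SE 0.16, edgeR adjusted p 0.0128). Mmp28, epilysin, made by epithelia, had 5.33 to 8.84 FPKM in MCT lungs and 7.76 to 10.2 FPKM in control lungs and was not called (log2 fold change -0.29, edgeR adjusted p 0.252). The MMP sum was 230 to 344 FPKM in MCT lungs and 191 to 219 FPKM in control lungs. Mmp2 alone had 101 to 185 FPKM in MCT lungs and 63.6 to 73.4 FPKM in control lungs. Of the 12 MMPs tested, 6 had a log2 fold change above 0 and 6 below.

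Of the 4 TIMPs, Timp1 rose and the others were not called. Timp1 (ENSRNOG00000010208, chromosome X, 1364786 to 1369384, minus strand), a secreted inhibitor of most MMPs that has weak action on Mmp14, had 50.9, 88.2, 74.9 and 72.0 FPKM in MCT lungs and 36.2, 39.3, 41.5 and 24.9 FPKM in control lungs. All MCT libraries lay above all control libraries. Its means of 71.5 ± 15.4 FPKM in MCT lungs and 35.5 ± 7.39 FPKM in control lungs gave a log2 fold change of 1.0 (SE 0.20, edgeR adjusted p 0.00823). Timp1 lies in Syn1 on the opposite strand, and Syn1 was at 0.538 FPKM in MCT lungs and 0.31 FPKM in control lungs.

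Timp2, which with Mmp14 activates the Mmp2 precursor, had 237, 311, 311 and 342 FPKM in MCT lungs and 324, 346, 323 and 296 FPKM in control lungs. The groups overlapped (log2 fold change -0.11, SE 0.11, edgeR adjusted p 0.566). Timp3, which binds to the matrix and also inhibits Adam17 and Adamts4, had 449.6, 458, 464 and 481 FPKM in MCT lungs and 369, 535, 417 and 697 FPKM in control lungs. It was the highest of all 43 reported genes, and the control libraries spread more widely than the MCT libraries (log2 fold change -0.12, SE 0.18, edgeR adjusted p 0.678). Timp4, the rarest inhibitor, had 1.9, 1.5, 1.1 and 1.3 FPKM in MCT lungs and 1.9, 0.84, 1.17 and 2.12 FPKM in control lungs (log2 fold change -0.05, SE 0.34, edgeR adjusted p 0.942).

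Timp2 and Timp3 made up 89.5% to 92.9% of the TIMP sum in MCT lungs and 94.5% to 97.4% in control lungs, and Timp1 6.88% to 10.3% in MCT lungs and 2.44% to 5.31% in control lungs. The TIMP sum was 739.8 to 896 FPKM in MCT lungs and 730.5 to 1020.2 FPKM in control lungs. The ratio of the MMP sum to the TIMP sum was 0.311 to 0.400 in MCT lungs and 0.188 to 0.292 in control lungs. Mmp2 made up 43.8% to 53.9% of the MMP sum in MCT lungs and 29.8% to 34.4% in control lungs. This ratio therefore rests largely on Mmp2 and does not describe the MMPs as a family. The ratio of Mmp2 to Timp2 was 0.495 ± 0.0748 in MCT lungs and 0.210 ± 0.0138 in control lungs (SD, n = 4 each), with every MCT library above every control library. These ratios are of transcript levels, were chosen after the values were seen and have no test here.

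**Figure D3:**
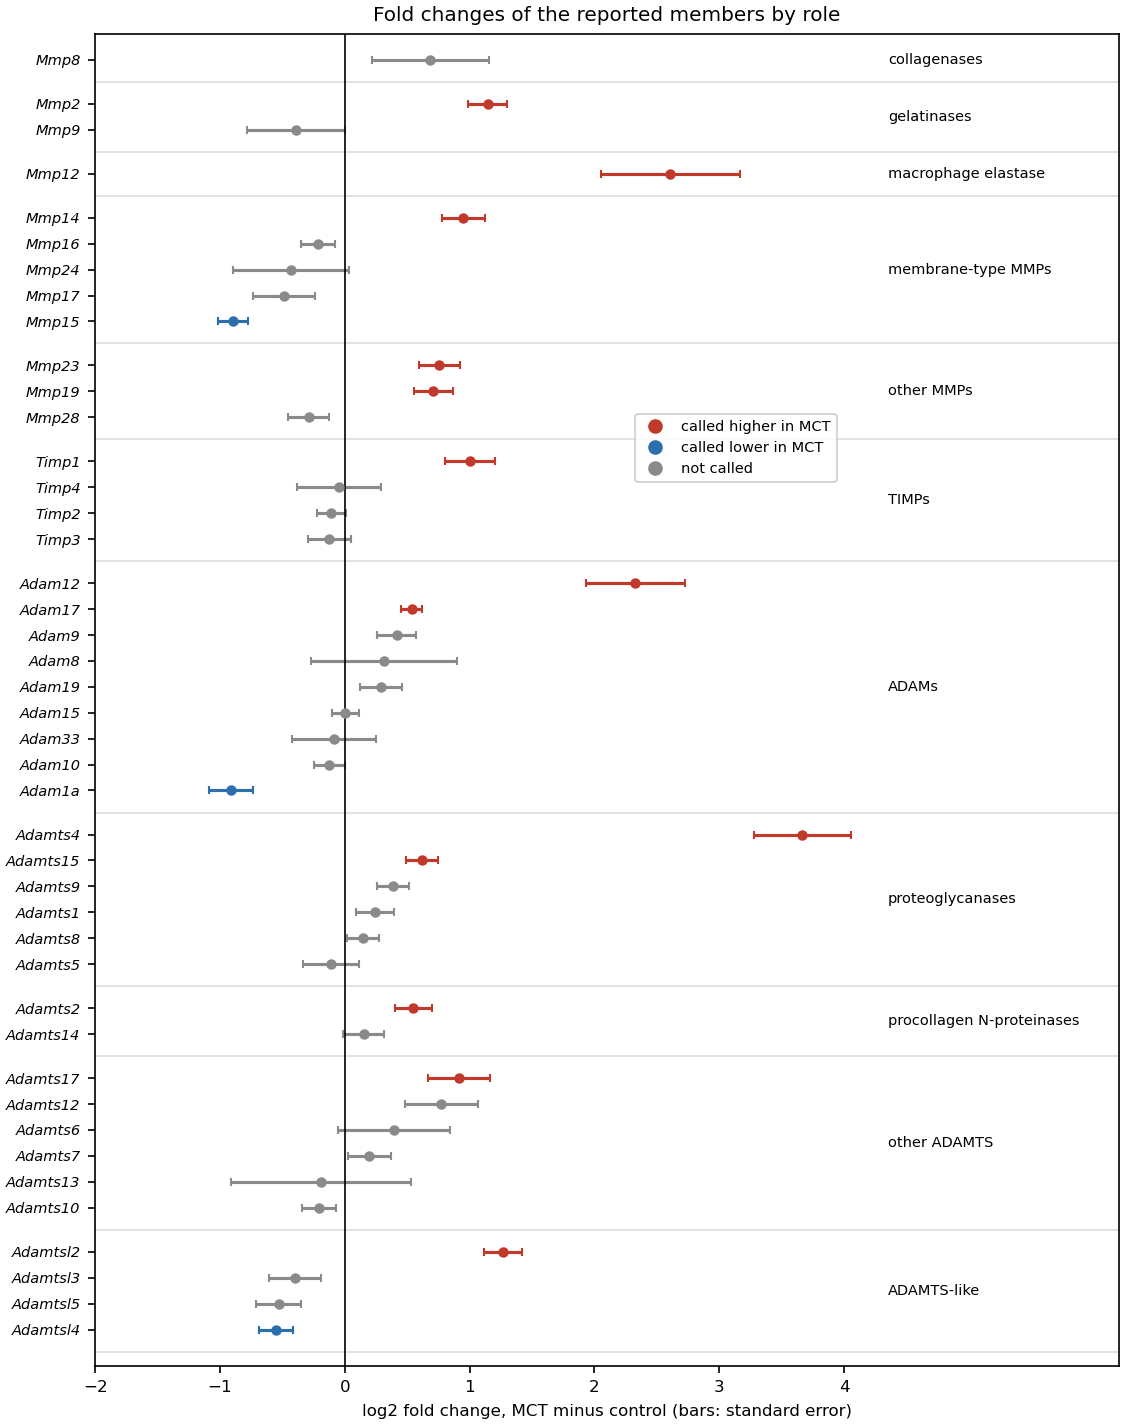
Log2 fold change, MCT minus control, of the 43 reported genes by role, with bars for the standard error; red marks calls higher, blue calls lower and grey genes that were not called. The 13 higher genes include Adamts4 at 3.67 and Mmp12 at 2.61, and the 3 lower ones are Mmp15, Adam1a and Adamtsl4.

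Among the ADAMs, Adam12 and Adam17 rose and Adam1a fell. Adam12 (ENSRNOG00000018384, chromosome 1, 205956342 to 206282575, minus strand), meltrin alpha, which sheds growth factors and cuts insulin-like growth factor binding proteins, had 0.67, 2.33, 2.84 and 2.42 FPKM in MCT lungs and 0.45, 0.38, 0.4 and 0.39 FPKM in control lungs. MCT 1 stood just above the control range and the other 3 MCT libraries well above it. The means were 2.06 ± 0.956 FPKM in MCT lungs and 0.405 ± 0.0311 FPKM in control lungs, a log2 fold change of 2.33 (SE 0.40, edgeR adjusted p 0.00423), or 5.02-fold, from 24.0 to 137 read pairs in MCT libraries and 13.1 to 21.0 in control libraries. Adam17 (ENSRNOG00000060694, chromosome 6, 43400528 to 43448280, minus strand), the enzyme that frees tumour necrosis factor from the cell surface, had 34.3, 45.1, 40.3 and 40.3 FPKM in MCT lungs and 26.8, 26.2, 28.5 and 28.7 FPKM in control lungs. The groups did not overlap. The log2 fold change was 0.54 (SE 0.09, edgeR adjusted p 0.00308).

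Adam1a, annotated as a pseudogene in the deposited table, averaged 3.08 ± 0.616 FPKM in MCT lungs and 5.79 ± 0.823 FPKM in control lungs (log2 fold change -0.91, SE 0.18, edgeR adjusted p 0.00705). Adam10, a sheddase of cadherins and of Notch receptors, averaged 25.5 ± 3.78 FPKM in MCT lungs and 27.8 ± 4.16 FPKM in control lungs and was not called (log2 fold change -0.12, SE 0.13, edgeR adjusted p 0.549). Adam9, which sheds several growth factors, had 40.7 to 57.5 FPKM in MCT lungs and 28.9 to 40.6 FPKM in control lungs. Its groups did not overlap, and it was not called (log2 fold change 0.41, SE 0.16, edgeR adjusted p 0.0927). Adam15 had means of 53.2 ± 7.82 FPKM in MCT lungs and 53.0 ± 3.80 FPKM in control lungs. Adam19, meltrin beta, which sheds neuregulin, averaged 23.8 ± 1.51 FPKM in MCT lungs and 19.4 ± 4.99 FPKM in control lungs and was not called (log2 fold change 0.29, edgeR adjusted p 0.263), but was called without control 3 (0.47, edgeR adjusted p 0.0357).

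Adam8, expressed by leukocytes, set MCT 1 and control 1 apart from the other libraries: it had 79.5, 24.0, 20.6 and 15.3 FPKM in MCT lungs and 49.1, 15.9, 25.1 and 23.3 FPKM in control lungs. Its log2 fold change of 0.31 was not called and turned to -0.51 without MCT 1. The 12 ADAMs outside the list of those with the zinc-binding motif have none reported, and their sequences were not checked for the motif. Of these, Adam4, Adam11 and Adam23 were tested. Adam11, the one with the highest mean, had 0.39, 0.23, 0.23 and 0.20 FPKM in MCT lungs and 0.60, 0.30, 0.32 and 0.30 FPKM in control lungs (edgeR adjusted p 0.345).

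The ADAMTS proteoglycanases held the largest fold change among the 43 genes. Adamts4 (ENSRNOG00000003538, chromosome 13, 89622632 to 89634419, plus strand), aggrecanase 1, which cuts aggrecan and versican, had 0.82, 2.14, 0.89 and 0.77 FPKM in MCT lungs and 0.08, 0.09, 0.09 and 0.09 FPKM in control lungs. Every MCT library lay above every control library, with MCT 2 far above the other MCT libraries. The means were 1.16 ± 0.659 FPKM in MCT lungs and 0.0875 ± 0.005 FPKM in control lungs, a log2 fold change of 3.67 (SE 0.39, edgeR adjusted p 0.000562), or 12.7-fold. The read pairs behind it were about 54.8 to 164 in MCT libraries and 5.99 to 7.08 in control libraries. Without MCT 2 the log2 fold change was 3.19 (edgeR adjusted p 0.00102). Adamts15 (ENSRNOG00000009892, chromosome 8), which cuts versican, averaged 36.9 ± 5.48 FPKM in MCT lungs and 24.0 ± 2.82 FPKM in control lungs (log2 fold change 0.62, SE 0.13, edgeR adjusted p 0.0101).

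Adamts8, whose annotated gene lies 18.2 kb from Adamts15, averaged 24.7 ± 3.49 FPKM in MCT lungs and 22.3 ± 3.34 FPKM in control lungs and was not called (log2 fold change 0.14, edgeR adjusted p 0.479). Without both MCT 1 and control 1 it was called (0.32, edgeR adjusted p 0.0407). Adamts1, Adamts5 and Adamts9 were not called, with log2 fold changes of 0.24, -0.11 and 0.38. For Adamts9 the call was missed narrowly (edgeR adjusted p 0.0654) and passed without control 2 (edgeR adjusted p 0.0330). Versican (Vcan), a substrate of these enzymes in the extracellular matrix, averaged 1.66 ± 0.560 FPKM in MCT lungs and 0.48 ± 0.154 FPKM in control lungs (log2 fold change 1.79, SE 0.29, edgeR adjusted p 0.00357).

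The procollagen N-proteinases cut the amino-terminal propeptide from fibrillar collagens. Adamts2 (ENSRNOG00000061484, chromosome 10, 36098051 to 36304409, plus strand) had 14.9, 25.1, 22.2 and 25.4 FPKM in MCT lungs and 15.3, 15.02, 15.4 and 14.0 FPKM in control lungs. MCT 1 lay within the control range and the other 3 MCT libraries above it. Adamts2 rose on the whole (log2 fold change 0.55, SE 0.15, edgeR adjusted p 0.0314), but the call was lost in 9 of 19 alternatives, among them each fit that left out 1 library other than MCT 1 (adjusted p up to 0.0892). Adamts14 averaged 3.63 ± 0.447 FPKM in MCT lungs and 3.25 ± 0.613 FPKM in control lungs and was not called. Adamts3 was under the level limit of 0.5 FPKM.

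Of the other ADAMTS genes, Adamts17 (ENSRNOG00000037080, chromosome 1, 127802978 to 128124171, plus strand) was called. It is a protease whose human mutations cause a Weill-Marchesani-like disorder of connective tissue, and it had 2.24, 1.89, 2.78 and 4.16 FPKM in MCT lungs and 1.5, 1.64, 1.43 and 1.27 FPKM in control lungs. The groups did not overlap, with MCT 4 the highest. The log2 fold change was 0.91 (SE 0.25, edgeR adjusted p 0.0308), and the call was lost in 9 of 19 alternatives, among them the fits without MCT 3, without MCT 4 and without each control library (adjusted p up to 0.0790) and without both MCT 1 and control 1 (edgeR adjusted p 0.0505). Adamts12, which cuts cartilage oligomeric matrix protein, had 2.10 to 4.68 FPKM in MCT lungs and 1.27 to 3.03 FPKM in control lungs. The log2 fold change was 0.77 (SE 0.29, edgeR adjusted p 0.0967), not called, and 0.95 without MCT 1, which was called (edgeR adjusted p 0.0300), as it was without both MCT 1 and control 1 (edgeR adjusted p 0.0198). Adamts13, which cuts von Willebrand factor and overlaps Cacfd1 on the same strand, had 4.18, 1.68, 3.49 and 0.22 FPKM in MCT lungs and 1.84, 3.77, 3.40 and 1.84 FPKM in control lungs. The MCT libraries spanned the control range and more (log2 fold change -0.19, edgeR adjusted p 0.886). Adamts10, linked in humans to Weill-Marchesani syndrome, averaged 45.2 ± 8.31 FPKM in MCT lungs and 52.0 ± 6.05 FPKM in control lungs, the highest level of this group, and was not called. Adamts7, which also cuts cartilage oligomeric matrix protein, and Adamts6 were not called either, with log2 fold changes of 0.20 and 0.39. Adamts6 averaged 0.575 FPKM in MCT lungs and 0.435 FPKM in control lungs. A protein-coding gene that overlaps it on the opposite strand averaged 2.27 FPKM in MCT lungs and 1.61 FPKM in control lungs.

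The ADAMTS-like proteins have the ADAMTS domains outside the protease domain and no protease activity. Adamtsl2 (ENSRNOG00000027742, chromosome 3, 5624506 to 5654910, plus strand), which in humans binds latent TGF-beta binding protein and is mutated in geleophysic dysplasia, had 73.6, 61.3, 52.5 and 76.2 FPKM in MCT lungs and 24.6, 32.8, 27.1 and 24.8 FPKM in control lungs. All MCT libraries were above all control libraries. It averaged 65.9 ± 11.0 FPKM in MCT lungs and 27.3 ± 3.79 FPKM in control lungs (log2 fold change 1.27, SE 0.15, edgeR adjusted p 0.000948, 2.41-fold), rank 5 in level among the reported genes in MCT lungs and rank 14 in control lungs. Its neighbour Adamts13, 66.3 kb away, was not called.

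Adamtsl4 (ENSRNOG00000049385, chromosome 2), which binds fibrillin, had 23.3, 17.2, 15.1 and 18.9 FPKM in MCT lungs and 28.8, 25.3, 29.1 and 26.1 FPKM in control lungs. The groups did not overlap. Adamtsl4 fell by 0.55 on the log2 scale (SE 0.13, edgeR adjusted p 0.0194), and the call was lost without MCT 2 (edgeR adjusted p 0.0606) or without control 3 (edgeR adjusted p 0.0503). Adamtsl5 had 4.96 to 7.72 FPKM in MCT lungs and 8.0 to 10.9 FPKM in control lungs, with no overlap, and was not called (log2 fold change -0.53, SE 0.18, edgeR adjusted p 0.0668). In 5 of 19 alternatives Adamtsl5 was called lower: the limma fits, DESeq2 and the fit without MCT 1 (edgeR adjusted p 0.0313). Adamtsl3 was not called (log2 fold change -0.40, edgeR adjusted p 0.210). The summed ADAMTS-like FPKM was 77.3 to 107 in MCT lungs and 64.0 to 70.1 in control lungs. Adamtsl2 alone had 52.5 to 76.2 FPKM in MCT lungs and 24.6 to 32.8 FPKM in control lungs. The other 3 genes had log2 fold changes below 0, so the higher sum is not shared by them.

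**Figure D4:**
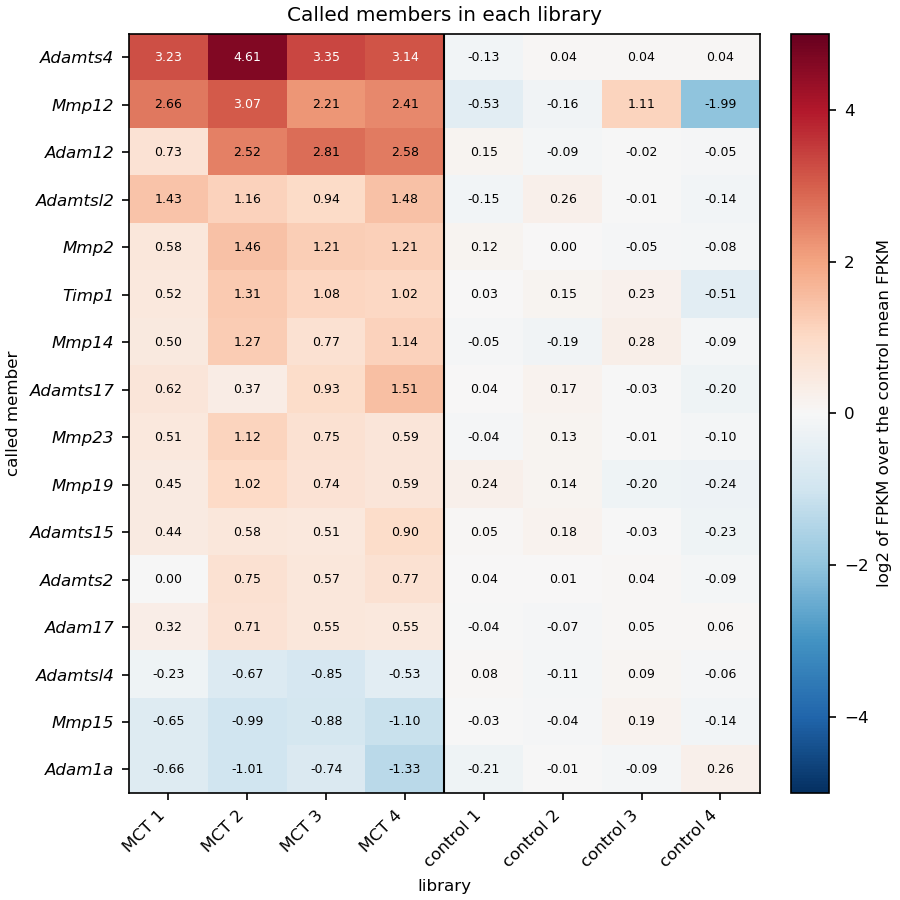
Log2 ratio of FPKM to the control mean for the 16 called genes in the 8 libraries, MCT libraries first, with the value in each cell. Ratios ran from -1.99 to 4.61. MCT 1 has the lowest MCT value for 9 of the 13 higher genes, and also for most reported genes that were not called.

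Around these proteases, 22 regulators and inhibitors other than the TIMPs were tested. Of these, 2 were called higher and 2 lower in MCT lungs, beside 11.0% and 9.45% of all genes tested. The median log2 fold change of the 22 was 0.12. Pcsk5, a proprotein convertase, averaged 7.59 ± 0.945 FPKM in MCT lungs and 4.52 ± 0.637 FPKM in control lungs (0.75, SE 0.12). Reck, a membrane-anchored inhibitor of MMPs, averaged 20.7 ± 3.33 FPKM in MCT lungs and 28.3 ± 4.24 FPKM in control lungs (-0.46, SE 0.13, edgeR adjusted p 0.0398). Rhbdf1, an inactive rhomboid that carries Adam17 to the cell surface, averaged 33.2 ± 3.11 FPKM in MCT lungs and 48.7 ± 2.52 FPKM in control lungs (-0.55, SE 0.09). Rhbdf2, the other inactive rhomboid that carries Adam17, averaged 13.8 ± 1.92 FPKM in MCT lungs and 13.8 ± 2.0 FPKM in control lungs and was not called (-0.01, SE 0.14, edgeR adjusted p 0.967).

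Of 31 tested membrane proteins that Adam10 or Adam17 shed, 4 were called higher and 3 lower. Among all genes tested, 11.0% were called higher and 9.45% lower, or 20.5% in either direction. The median log2 fold change of the 31 was 0.19. Vcam1, the adhesion receptor of activated endothelium, averaged 30.5 ± 6.05 FPKM in MCT lungs and 11.7 ± 0.667 FPKM in control lungs (1.38, SE 0.13). Notch1, a receptor that Adam10 cuts upon ligand binding, averaged 14.0 ± 1.93 FPKM in MCT lungs and 31.5 ± 3.47 FPKM in control lungs (-1.17, SE 0.13). Trem2, a macrophage receptor, averaged 16.8 ± 3.78 FPKM in MCT lungs and 2.89 ± 1.88 FPKM in control lungs (2.54, SE 0.40). Tnfrsf1a, a tumour necrosis factor receptor, averaged 73.3 ± 6.91 FPKM in MCT lungs and 56.0 ± 2.63 FPKM in control lungs (0.39, SE 0.08). The part of the endothelial markers given above in the Notch1 and Vcam1 results, and of the macrophage markers, which include Trem2, was not tested.

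Of 20 tested matrix substrates, 16 were called higher and 2 lower (Vwf and Ltbp1), beside 11.0% and 9.45% of all genes tested. The median log2 fold change of the substrates was 1.17. Their summed FPKM was 2223 to 3536 in MCT lungs and 1285 to 1382 in control lungs. The called substrates with the smallest p were the fibrillar collagen genes Col1a1 (1.70, SE 0.19) and Col3a1 (1.41, SE 0.20), the elastin gene Eln (2.41, SE 0.27) and the basement membrane collagen gene Col4a1 (0.85, SE 0.13), all log2 fold changes, MCT minus control. Col1a1 and Col3a1 are also on the fibroblast marker list. The Adamts13 substrate Vwf averaged 74.8 ± 15.6 FPKM in MCT lungs and 132 ± 17.3 FPKM in control lungs (-0.82, SE 0.16, edgeR adjusted p 0.00828). Of 8 other metallopeptidases tested, 3 were called lower (Ece1, Tll1 and Mme), beside 9.45% of all genes tested. Ece1, which makes active endothelin, averaged 86.0 ± 10.3 FPKM in MCT lungs and 153 ± 9.09 FPKM in control lungs (-0.83, SE 0.10, edgeR adjusted p 0.000813). Mme, neprilysin, which degrades peptides at the cell surface, averaged 13.9 ± 1.98 FPKM in MCT lungs and 19.9 ± 3.73 FPKM in control lungs (-0.53, SE 0.15). Tll1, a procollagen C-proteinase, averaged 0.31 ± 0.175 FPKM in MCT lungs and 0.928 ± 0.333 FPKM in control lungs (-1.58, SE 0.46).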

How the data were processed

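Rat lung RNA, captured with oligo(dT) beads per the labels' protocols, was sequenced in 4 MCT and 4 control libraries. The submitters' processing notes name cutadapt 1.9, HISAT2 2.0.4, StringTie 1.3.4d, edgeR and the build Rnor_6.0, without order or settings. Per the file headers the deposited table gives an estimated count and an FPKM value per gene and library. The deposited estimated counts are whole numbers whose low values are spaced by about 3.67 units per read pair, so read pairs are estimates. The sources used here do not give how reads shared between paralogs, overlapping genes or strands were counted.

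Libraries were compared with edgeR 4.0.16 in R 4.3.3: filterByExpr (minimum count 10), TMM scaling, robust quasi-likelihood fit, two-sided test, Benjamini-Hochberg adjustment over 16715 genes. Log2 fold changes are MCT minus control. Limma 3.58.1 on log2(FPKM + 0.5), DESeq2 1.42.0 and other alternatives were run, and the tests were run on simulated data with known changes. No libraries of a group were duplicates. Gene values in every library are given for called members with a log2 fold change of 1 or more in size, the leading gene of each role and all TIMPs. Mmp14, Mmp9, Adam8, Adamts13 and Adamtsl4 were added after their values were seen. Up to 4 called genes with the smallest p are named per pathway list, except 1 that is not reported here, and Vcan, Vwf, Ltbp1 and Rhbdf2 were added likewise. The members and lists were chosen with earlier results of these data known. RefSeq promoters (GRCr8) were matched by symbol, and the first row was used for 3 members with several.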

Additional observations from a re-analysis of the deposited data

Results flagged for a closer look

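Dixon's criterion, applied to each gene's 4 values in a group, picked out 7 of 86 sets with a value far from the rest, where chance gives about 1 in 20, or 4.3. The number given is the gap to the nearest library as a share of the group's range. Adam8 in MCT 1 stood at 79.5 FPKM against 15.3 to 24.0 in the other MCT lungs (0.865). Adam33 in MCT 4 stood at 19.2 FPKM against 9.01 to 10.2 (0.880), and Adamts5 in MCT 1 at 0.64 against 0.96 to 1.02 FPKM (0.842). Adamts4 in MCT 2 stood at 2.14 against 0.77 to 0.89 FPKM (0.912). Mmp17 in control 1 stood at 4.98 FPKM against 2.72 to 3.07 in the other control lungs (0.845), and Adamtsl3 in control 3 at 2.90 against 4.09 to 4.27 FPKM (0.869). Adamts4 in control 1 stood at 0.08 FPKM and the other 3 control lungs at 0.09 (1), a step of the last decimal deposited.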

How the results depend on the processing

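Up to 19 alternatives were run per gene, and the size limit given below is not among them. Of the 16 called members, 12 kept their call in every alternative that tested them. Adam12 and Adamts4 had 18, as the filter of at least 1 FPKM in 4 libraries left them out. Adamts2, Adamts17, Adamtsl4 and Mmp12 lost their call in at least 1, and no called member changed sign. Adam9, Adam19, Adamts8, Adamts9, Adamts12 and Adamtsl5 were called in at least 1 alternative; Adam19 was called without control 3 (0.47, edgeR adjusted p 0.0357). With 1 library left out, 11 to 14 members were higher and 2 to 4 lower, and over all genes 1191 to 1946 were higher and 975 to 1730 lower, both lowest without MCT 2 (1845 and 1579 with all libraries). With a size limit of 1 on the log2 fold change, 6 members were higher and 0 lower (3 lower members by edgeR without that limit), and over all genes 618 were higher and 298 lower. The labels do not state whether libraries with the same replicate number are paired. Same-numbered libraries had correlations of 0.11, 0.02, -0.02 and -0.08 between their deviations from the group mean. Only pair 1 matched best with its own number. Such correlations cannot show that the libraries were unpaired, as a pairing may leave little trace in them. With the replicate number as a block, 14 members were higher and 3 lower, and over all genes 1436 were higher and 1271 lower.

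Of the reported genes, 8 that were not called had a sign that changed in at least 1 alternative, and the cause was not tested. Adam15 was at -0.0022, -0.0023 and -0.0021 with limma (pseudocounts of 0.5, 0.1 and 1), -0.0063 with DESeq2, -0.0070 with median-of-ratios scaling and -0.0040 with the replicate block. Timp4 was at 0.0051 with limma (pseudocount 0.1) and 0.0018 with the replicate block. Without both MCT 1 and control 1, Adam33 was at 0.14, Adam8 at -0.11 and Adamts5 at 0.025. With 1 library left out, the ranges were -0.089 to 0.076 for Adam15, -0.41 to 0.030 for Adam33, -0.51 to 0.71 for Adam8, -0.62 to 0.18 for Adamts13, -0.18 to 0.019 for Adamts5, -0.10 to 0.61 for Adamts6, -0.25 to 0.057 for Timp3 and -0.25 to 0.15 for Timp4. Few read pairs lay behind Adamts5 (about 24.0 to 59.4 in MCT libraries) and behind Mmp9 (about 10.6 to 28.6), whose sign did not change. Timp3 had about 9301 to 15837 read pairs in MCT libraries. The part of depth in the sign changes was not tested.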
